A study of Homo sapiens with 4 samples.

Results

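The collagen genes were followed in parental SUM159 cells and in 3 NOS2KO SUM159 clones, which are SUM159 cells with NOS2, the gene of inducible nitric oxide synthase (iNOS), targeted. A gene was taken as a collagen gene when its protein-coding symbol was COL, digits, A and digits, which gave 44 of the 57500 genes counted. SUM159 is a mesenchymal-like breast cancer line of the metaplastic and triple-negative kind. For the clones, cells were given a NOS2 double nickase plasmid and kept under puromycin. They were picked by their iNOS protein and by an assay of nitrite and nitrate, and each is 1 clone. The parental cells are given no plasmid in the labels, so the knockout, the selection and the growth as a clone cannot be told apart in any comparison below.

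There was 1 library for the parental cells and 1 for each of clones 1, 5 and 6, with 90467395 to 122171287 counts on genes, and nothing says that any came from more than 1 culture. NOS2 mRNA itself had 2 counts in parental cells, 3 in clone 1, 18 in clone 5 and 1 in clone 6. The mRNA therefore does not check the knockout. Clone 5, which had more NOS2 counts than the parental library, is called labelled clone 5 from here on. The paper reports absent iNOS protein and less nitrite and nitrate in its SUM159 NOS2KO clones, and protein was not measured here. VIM, an intermediate filament of mesenchymal cells, had 1655 CPM in parental cells and 3855, 2890 and 3339 in clones 1, 5 and 6. For its protein, vimentin, the paper reports a lower level in the NOS2KO clones than in parental SUM159 cells. CPM is the count of a gene relative to the library's total, as scaled by edgeR's TMM factors. Of the other mesenchymal markers, FN1 was above the parental library in each clone and CDH2 in clone 1 only. ZEB1 was below it in each clone, with 83.7 CPM in parental cells and 39.5, 50 and 57.8 in the clones. Of the epithelial markers, CDH1 and EPCAM stayed at or under 0.413 CPM in every library and ESRP1 at or under 5.65. The keratins KRT8 and KRT18 had 254 to 806 and 303 to 467 CPM.

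Collagens are trimeric proteins of the extracellular matrix, built of alpha chains with Gly-X-Y repeats that wind into a helix. Fibrillar collagens form the banded fibrils of connective tissue, type IV collagens form the sheet of the basement membrane, and transmembrane collagens sit in the plasma membrane with a collagenous ectodomain. Collagens of the FACIT class decorate fibrils, multiplexins lie near basement membranes, types VIII and X form hexagonal networks, type VI forms beaded filaments and type VII forms the anchoring fibrils of the skin. In breast tumours most fibrillar collagen is made by stromal fibroblasts, and mesenchymal-like tumour cells also make it.

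Collagen genes took 1.06% of all counts in parental cells, 0.714% in clone 1, 2.14% in labelled clone 5 and 2.32% in clone 6. The clones thus lay on both sides of the parental share, with clone 1 below it and the others above it. Of the 44 genes, 30 reached 1 CPM in at least 1 library, and the other 14 stayed at or under 0.947 CPM everywhere.

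Levels of different genes were compared as CPM per kilobase of exons. In the parental library the highest were COL6A2 with 442, COL6A1 with 368 and COL3A1 with 116 CPM per kilobase. COL6A2 and COL6A1, chains of type VI collagen, also led in clone 1, with 234 and 228. In labelled clone 5 and clone 6 the highest was COL3A1, the chain of the type III collagen homotrimer, with 709 and 784 CPM per kilobase. Fibrillar genes made up 19.3% of the summed level per kilobase in parental cells, 21.6% in clone 1, 40.5% in labelled clone 5 and 41.5% in clone 6. Beaded-filament genes made up 60.7%, 51.7%, 46.4% and 45.6% in the same order. The shares of a total move together by construction, and the summed level itself was 1428 CPM per kilobase in the parental library against 955, 2716 and 3059 in the clones.

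**Figure D1:**
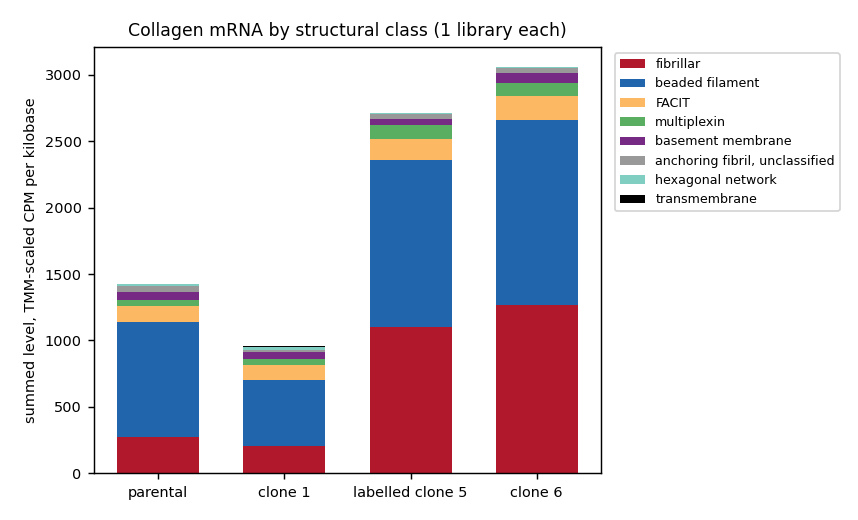
Summed level of the collagen genes in each library (TMM-scaled CPM per kilobase of exons, vertical axis), with 1 bar for each of the 4 libraries and 1 colour for each structural class. The fibrillar part is 275 in parental cells, 206 in clone 1, 1100 in labelled clone 5 and 1268 in clone 6, and the beaded-filament part is 867, 494, 1261 and 1395.

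Set against the parental library, 3 of the 38 collagen genes that could be tested passed the threshold (unadjusted p under 0.05, and a difference of more than 1 on the log2 scale in either direction). COL4A4, a type IV chain, and COL1A2, the alpha 2 chain of type I collagen, were higher in the clones, and COL17A1, a hemidesmosomal transmembrane collagen, was lower. Among all 22511 genes tested, 4.24% passed in the higher direction and 5.34% in the lower, so 2 and 1 of 38 members are near the background. With Benjamini-Hochberg adjustment over all genes, no collagen gene passed 0.05 in edgeR's quasi-likelihood test, against 0.00444% of all genes. At an unadjusted p under 0.05 in edgeR, with no minimum fold, there were the same 3, against 11.5% of all genes. DESeq2's Wald test gave an adjusted p under 0.05 to 3 of the 33 collagen genes for which it gave one, COL4A4, COL14A1 and COL17A1, against 6.18% of all genes.

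The count changed most with clone 1 left out. Without that library 14 of 38 collagen genes passed, 13 of them higher, while the share of all genes past the threshold went from 9.58% to 15.5%. Without labelled clone 5 there were 2 of 35, against 7.83% of all genes, and without clone 6 there were 2 of 37, against 6.61%, COL4A4 and COL17A1 each time. With 1 parental library the p-values measure the spread between these clones only, and the smallest p that exactly permuting 1 library against 3 allows is 0.25.

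The fitted log2 fold change had a median of 1.05 over the 38 genes, and of 1.02 with genes at 0 counts placed at their bound, beside 0.10 over all genes. A gene seen in 1 clone alone could pass the filter and then had to be higher there. Over the 29 collagen genes with a mean of at least 1 CPM the median was 0.69. All 3 clones were above the parental library for 14 collagen genes, against 28.6% of all genes, and all 3 were below it for 3, against 30.5%. The 14 include COL25A1 and COL10A1, which had 0 counts in parental cells and so could not be lower in a clone. The genes below in every clone were COL11A1, COL17A1 and COL7A1, and for COL11A1 the exact 95% intervals of labelled clone 5 and clone 6 included 0 on the log2 scale.

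The clones differed from each other in this. In clone 1, 8 of the 38 genes were more than 1 higher and 12 more than 1 lower than in the parental library on the log2 scale, against 16.0% and 19.2% of all genes. In labelled clone 5, 19 were higher and 4 lower, against 20.4% and 14.3% of all genes. In clone 6, 18 were higher and 1 lower, against 18.3% and 15.6%. These counts of ratios between 2 libraries come with no test, and counts under 3 were set to 3 for them. They include genes that passed the filter only through a clone and had to be higher there. In labelled clone 5, COL25A1 and COL9A1 had 67 and 44 counts against 0 in the parental library. COL10A1 had 11 counts in clone 6 against 0. Among the 30 genes that reached 1 CPM, clone 1 had the lowest level of the clones for 22, while labelled clone 5 and clone 6 had the highest for 13 each. The highest clone stood a median of 3.85 fold over the lowest, more than 4 fold for 15 genes and less than 2 fold for 4.

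**Figure D2:**
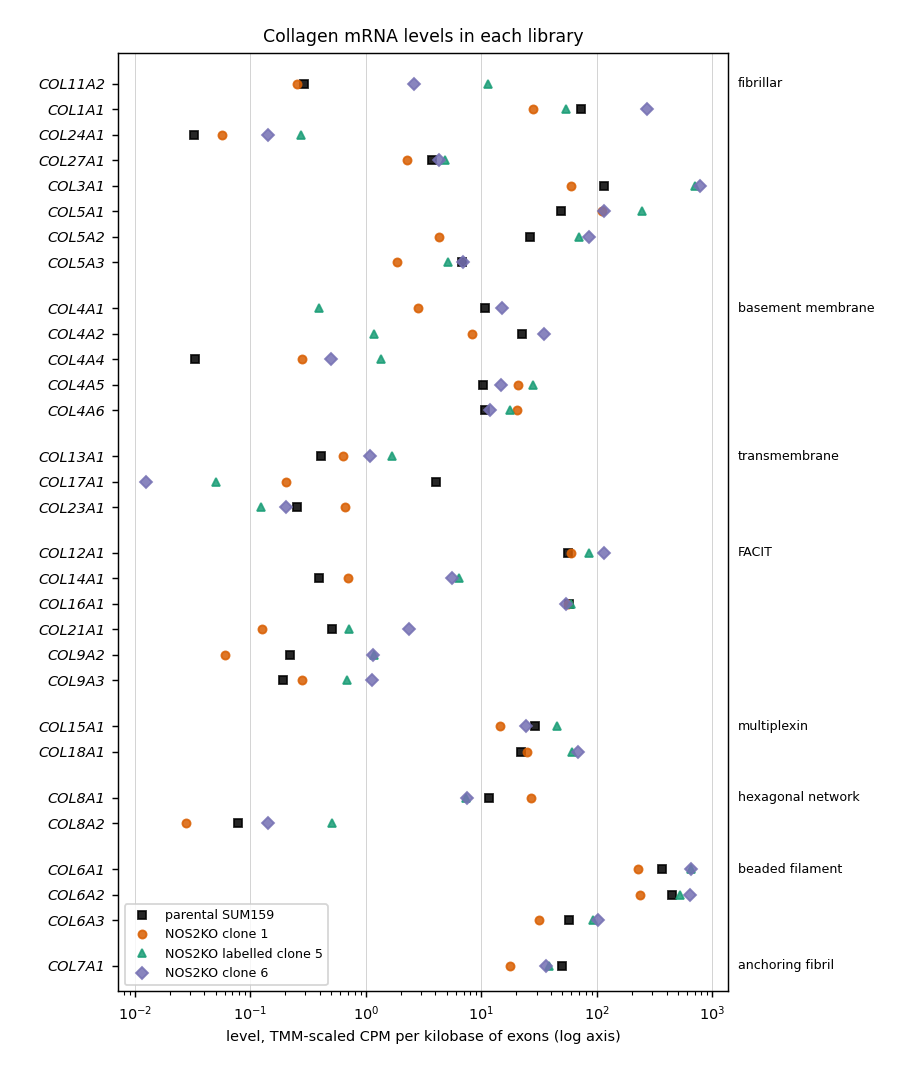
Level of the 30 collagen genes that reached 1 CPM in a library (TMM-scaled CPM per kilobase of exons, log axis), by structural class, with 1 symbol for each of the 4 libraries. The lowest clone is clone 1 for 22 of the genes, and for COL17A1 the 3 clones lie far below the parental library.

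Among the fibrillar genes COL3A1, of type III collagen, had the largest difference in level per kilobase between libraries, from 59.6 to 784 CPM per kilobase. As a ratio this was 13.2 fold, less than the 45.4 fold of COL11A2 and the 19.7 fold of COL5A2. COL3A1 (chr2:188974320-189012746, GRCh38) had 796 CPM in parental cells, 410 in clone 1, 4871 in labelled clone 5 and 5389 in clone 6. The parental library lay within the range of the clones, and the log2 ratios were -0.96, 2.61 and 2.76. The fitted log2 fold change of 2.16 (standard error, SE, 1.34) had an adjusted p of 0.619 in edgeR's quasi-likelihood test, and the gene was past the threshold without clone 1.

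COL1A1, the alpha 1 chain of type I collagen, had 713 CPM in parental cells, 275 in clone 1, 534 in labelled clone 5 and 2647 in clone 6. Only clone 6 was above the parental library. Its fitted log2 fold change was 0.69 (SE 1.30), and it was -0.81 without clone 6.

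COL1A2 (chr7:94394561-94431232), whose chain pairs with that of COL1A1 in the common heterotrimer of type I collagen, was close to silent. It had 10 counts in parental cells, 50 in clone 1, 101 in labelled clone 5 and 70 in clone 6, or 0.111, 0.436, 0.947 and 0.710 CPM. Every clone lay above the parental library, with log2 ratios of 1.98 (exact 95% interval 0.98 to 3.12), 3.10 (2.16 to 4.20) and 2.68 (1.72 to 3.80). In the fit, the log2 fold change was 2.64 (SE 0.76, adjusted p = 0.385 in edgeR's quasi-likelihood test). The difference is one between trace levels. Per kilobase, COL1A1 exceeded COL1A2 by 7322 fold in parental cells, 718 fold in clone 1, 640 fold in labelled clone 5 and 4236 fold in clone 6.

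Type V collagen, which sets the diameter of collagen fibrils, had chains that parted in clone 1. COL5A1 had 552 CPM in parental cells, 1230 in clone 1, 2733 in labelled clone 5 and 1293 in clone 6, all clones above the parental library. The fitted log2 fold change was 1.67 (SE 0.59, adjusted p = 0.445 in edgeR's test). COL5A2, its partner chain, had 190 CPM in parental cells and 30.8, 503 and 607 in clones 1, 5 and 6, so that clone 1 fell on the other side of the parental level. The ratio of COL5A1 to COL5A2 per kilobase was 1.86 in parental cells, 25.5 in clone 1, 3.47 in labelled clone 5 and 1.36 in clone 6. COL5A3, another chain found in some type V trimers, had 45.8 CPM in parental cells and 12.6, 34.9 and 46.5 in the clones.

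COL3A1 and COL5A2 are neighbours on chromosome 2, on opposite strands with 19149 bases between them. Both were lower than in the parental library in clone 1 and higher in the other clones. Their ratio per kilobase was 4.37 in parental cells and 13.8, 10.1 and 9.24 in clones 1, 5 and 6.

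Type XI chains, known from cartilage, were scarce in parental cells. COL11A2 had 1.97 CPM in parental cells, 1.69 in clone 1, 76.8 in labelled clone 5 and 17.5 in clone 6. Clone 1 matched the parental library within counting error, with a log2 ratio of -0.22 (exact 95% interval -0.52 to 0.08), while labelled clone 5 stood at 5.29 and clone 6 at 3.15. The fitted log2 fold change of 4.02 (SE 1.81) had an adjusted p of 0.554 in edgeR's test. COL11A1, the other type XI chain of the class, had 61 counts in parental cells and 31, 55 and 55 in the clones.

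The remaining fibrillar genes were COL24A1 and COL27A1, which encode minor fibrillar collagens of developing skeleton. COL24A1 had 0.310 CPM in parental cells, 0.549 in clone 1, 2.65 in labelled clone 5 and 1.36 in clone 6, each clone above the parental library. COL27A1 had 52.5 CPM in parental cells and 31.9, 68.2 and 60.1 in the clones, with a fitted log2 fold change of 0.03 (SE 0.49). COL2A1, the cartilage collagen, had at most 6 counts in a library and was not tested.

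**Figure D3:**
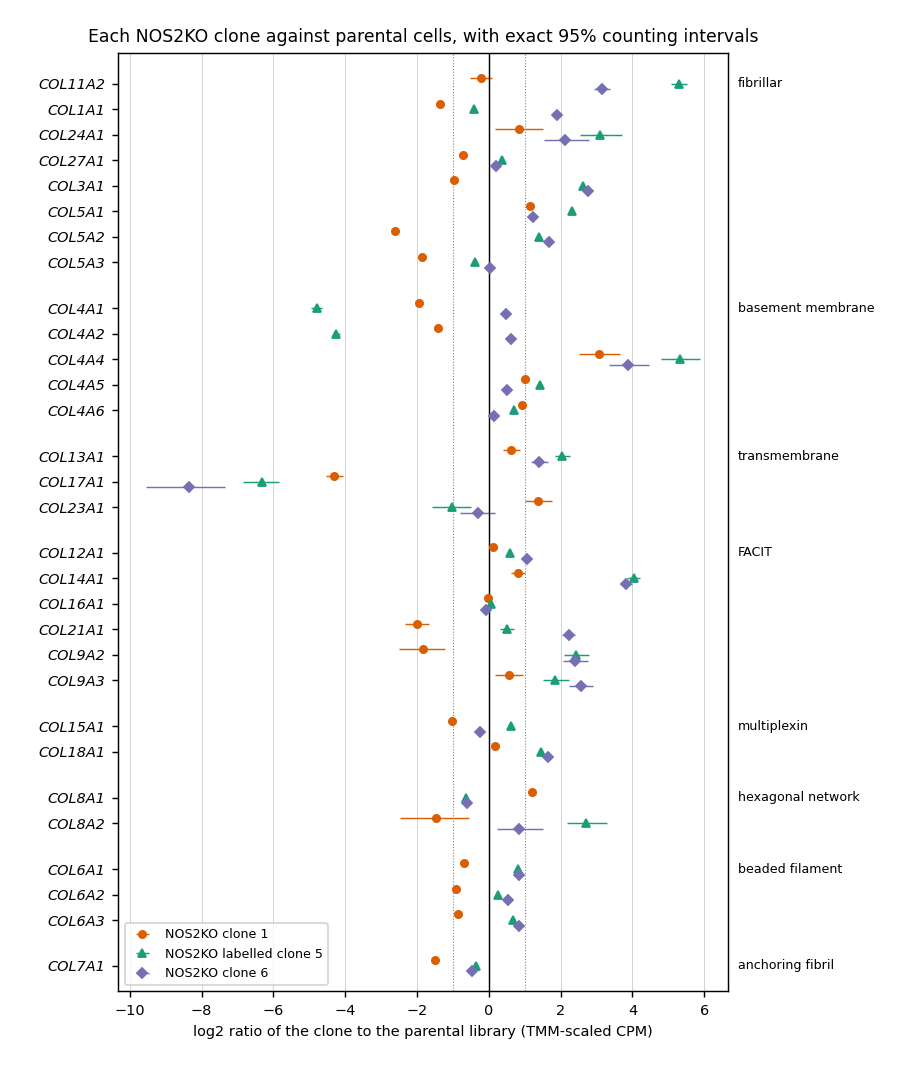
Log2 ratio of each NOS2KO clone to the parental library (TMM-scaled CPM, horizontal axis) for the 30 collagen genes that reached 1 CPM, by class, with exact 95% counting intervals as bars and dotted lines at 1 and -1. The ratios of COL17A1 run from -4.30 to -8.34 and those of COL4A4 from 3.06 to 5.32, while COL16A1 stays between -0.07 and 0.07.

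The 6 type IV genes lie as head-to-head pairs on chromosomes 13, 2 and X, each pair transcribed outward from a shared promoter region. In RefSeq, 126 bases lie between the starts of COL4A1 and COL4A2, 418 between those of COL4A4 and COL4A3, and 379 between the nearest starts of COL4A6 and COL4A5. The stretch shared by COL4A1 and COL4A2 is shown for its CCAAT box, in capitals, as 30 bases of the plus strand at chr13:110307167-110307196 (GRCh38.p14), in which GENCODE 29 places the first exon of COL4A1.
COL4A1 and COL4A2: gggccgagctccCCAATttgttggcgctgc

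COL4A1 and COL4A2 encode the chains of the ubiquitous type IV trimer and lay on the same side of the parental library in every clone. COL4A1 (chr13:110148963-110307149) had 88.8 CPM in parental cells, 23.1 in clone 1, 3.20 in labelled clone 5 and 124 in clone 6. COL4A2 (chr13:110305812-110513027) had 194, 72.2, 10.2 and 302 CPM in the same order. Labelled clone 5 was lowest for both, with log2 ratios of -4.79 (exact 95% interval -4.96 to -4.64) and -4.25 (-4.34 to -4.16), and clone 6 was above the parental library for both. Per kilobase, COL4A1 stood at 0.486 of COL4A2 in the parental library and at 0.340, 0.332 and 0.438 in clones 1, 5 and 6. Both chains were over 10 fold lower in labelled clone 5, and the ratio between them was within 1.5 fold of the parental one. With clones on both sides of the parental library, the fitted log2 fold changes of -0.82 (SE 1.76) and -0.60 (SE 1.64) were smaller than their errors.

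COL4A3 and COL4A4 encode chains of the glomerular basement membrane. COL4A4 (chr2:227002711-227164113) had 30 counts in parental cells, 318 in clone 1, 1415 in labelled clone 5 and 484 in clone 6, or 0.332, 2.77, 13.3 and 4.91 CPM. All 3 clones lay above the parental library, as for 28.6% of all genes tested. The log2 ratios were 3.06 (exact 95% interval 2.52 to 3.65), 5.32 (4.80 to 5.89) and 3.89 (3.35 to 4.47). Its fitted log2 fold change was 4.39 (SE 0.99, adjusted p = 0.356 in edgeR's quasi-likelihood test), and DESeq2 gave an adjusted p of 0.000682.

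COL4A3, across the shared promoter region, had 8 counts in parental cells, 25 in clone 1, 65 in labelled clone 5 and 8 in clone 6, all under 1 CPM. Its ratio to COL4A4 per kilobase was 0.289 in the parental library and 0.0853, 0.0498 and 0.0179 in clones 1, 5 and 6. The RefSeq promoter window of COL4A3 held GGGCGG, the GC box. The 159 bases upstream of COL4A4 that no annotated exon covers held none of the motifs searched, so no letter is in capitals. They are shown on the minus strand at chr2:227164237-227164395 (GRCh38.p14).
COL4A4: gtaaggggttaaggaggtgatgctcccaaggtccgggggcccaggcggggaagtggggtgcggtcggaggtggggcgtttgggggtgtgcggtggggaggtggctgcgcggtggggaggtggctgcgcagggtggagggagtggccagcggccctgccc

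COL4A5 and COL4A6, the X-linked pair, were higher than in the parental library in each clone. COL4A5 had 89.8 CPM in parental cells, 180 in clone 1, 242 in labelled clone 5 and 128 in clone 6, with a fitted log2 fold change of 1.03 (SE 0.43, adjusted p = 0.475 in edgeR's test). COL4A6 had 100 CPM in parental cells, 190 in clone 1, 163 in labelled clone 5 and 111 in clone 6. The ratio of COL4A5 to COL4A6 per kilobase was 0.951, 1.01, 1.57 and 1.23 in the same order.

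**Figure D4:**
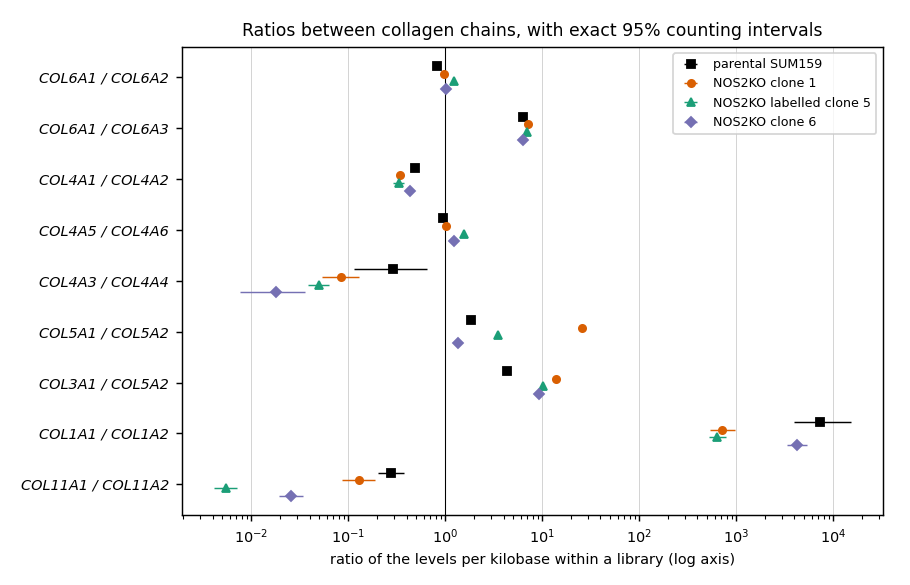
Ratio of the levels per kilobase of pairs of collagen genes within each library (log axis), with exact 95% counting intervals as bars and a line at 1. COL6A1 to COL6A3 runs from 6.36 to 7.17, COL6A1 to COL6A2 from 0.832 to 1.23 and COL4A1 to COL4A2 from 0.332 to 0.486. COL5A1 to COL5A2 runs from 1.36 to 25.5 and COL11A1 to COL11A2 from 0.00547 to 0.279.

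COL17A1 (chr10:104031286-104086002), which anchors epithelial cells to the basement membrane in hemidesmosomes, was the transmembrane gene past the threshold. It had 2371 counts in parental cells, 153 in clone 1, 35 in labelled clone 5 and 8 in clone 6, or 26.2, 1.33, 0.328 and 0.0811 CPM. All 3 clones were below the parental library, as for 30.5% of all genes tested. The log2 ratios were -4.30 (exact 95% interval -4.54 to -4.06), -6.32 (-6.85 to -5.84) and -8.34 (-9.55 to -7.36). In the fit, the log2 fold change was -5.49 (SE 1.42, adjusted p = 0.332 in edgeR's quasi-likelihood test), and DESeq2 gave an adjusted p of 0.00171. The paper, from its RNA sequencing of NOS2KO cells, already names COL17A1 among the genes significantly lower in them. It links those genes to epithelial-to-mesenchymal transition and to the upkeep of cancer stem cells. ESRP1, a splicing regulator of epithelial cells, was also past the threshold, with 5.65 CPM in parental cells and 0.0698, 0.807 and 0.223 in the clones. The other epithelial markers were not: KRT8 and KRT18 were above the parental library in each clone, and the summed level of the 5 markers was 563 CPM in parental cells and 835 to 1275 in the clones. Their part in the fall of COL17A1 was not tested.

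The promoter of COL17A1 is shown because this gene had the deepest fall among the collagens. The 128 bases upstream of its annotated exons, on the minus strand at chr10:104086003-104086130 (GRCh38.p14), hold TATAAA, in capitals. They hold 39.1% G and C, against 73.0% in the stretch of COL4A4.
COL17A1: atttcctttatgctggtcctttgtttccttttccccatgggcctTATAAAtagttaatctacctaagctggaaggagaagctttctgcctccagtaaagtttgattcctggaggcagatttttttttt

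The other transmembrane genes are COL13A1, a collagen of muscle junctions, COL23A1 and COL25A1. COL13A1 had 2.35 CPM in parental cells, 3.64 in clone 1, 9.66 in labelled clone 5 and 6.21 in clone 6, every clone above the parental library, with a fitted log2 fold change of 1.47 (SE 0.67, adjusted p = 0.512 in edgeR's test). COL23A1 had 0.907 CPM in parental cells and 2.35, 0.441 and 0.730 in the clones, so that only clone 1 was above. COL25A1 had 0 counts in parental cells, 4 in clone 1, 67 in labelled clone 5 and 3 in clone 6. A count of 0 allows up to 3 counts, or 0.0332 CPM, in the parental library.

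Across RefSeq promoter windows, which run from upstream of a start to just past it, 32 of the 44 collagen genes were represented, by 44 windows, as some genes have several starts. COL1A1, COL1A2, COL2A1, COL3A1, COL5A2, COL6A1, COL6A5, COL8A1, COL9A3, COL14A1, COL20A1 and COL22A1 had none. Letters were searched on both strands. GGGCGG, the GC box, was in 24 of the 44 windows, against 45.0% of all 35116 windows. CCAAT was in 14, against 34.6%, and TATAAA was in 8, against 11.5%. TGANTCA, the letters bound by AP-1, were in 1 window, of COL10A1, against 7.71% of all windows. COL17A1 and COL10A1 were the only members whose windows held both CCAAT and TATAAA.

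The beaded-filament genes of type VI collagen, which links cells to the matrix around them, were the most abundant group per kilobase. COL6A1 had 1965 CPM in parental cells, 1217 in clone 1, 3449 in labelled clone 5 and 3497 in clone 6. COL6A2 had 2380, 1261, 2821 and 3433 CPM in the same order, and COL6A3 had 1128, 624, 1809 and 2020. For each gene clone 1 was below the parental library and the others above it, so that the parental library lay within the clones. The ratio of COL6A1 to COL6A3 per kilobase ran only from 6.36 to 7.17 over the 4 libraries. That of COL6A1 to COL6A2 ran from 0.832 in parental cells to 1.23 in labelled clone 5, where COL6A1 was the higher chain. The fitted log2 fold changes were 0.47, 0.07 and 0.40, with standard errors of 0.64 to 0.72. COL6A5 had no count in any library and COL6A6 at most 5, and neither was tested. For COL6A5 this allows up to 3 counts in a library.

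Among the FACIT genes, COL12A1 and COL16A1 were abundant. COL16A1 was level across the libraries, with 528 CPM in parental cells, 526 in clone 1, 553 in labelled clone 5 and 503 in clone 6, and a fitted log2 fold change of 0.00 (SE 0.30). COL12A1, found on type I fibrils of tendon and dermis, had 695, 748, 1055 and 1439 CPM, each clone above the parental library, with a fitted log2 fold change of 0.64 (SE 0.47).

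COL14A1 (chr8:120059780-120372036), which also binds fibrils and limits their growth, had 3.41 CPM in parental cells, 6.02 in clone 1, 55.6 in labelled clone 5 and 48.1 in clone 6. Every clone lay above the parental library, clone 1 at 1.77 fold of it, and labelled clone 5 and clone 6 stood far above clone 1. Its fitted log2 fold change was 3.42 (SE 1.18, adjusted p = 0.466 in edgeR's test), and DESeq2 gave an adjusted p of 0.0387.

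COL21A1 had 3.60 CPM in parental cells, 0.898 in clone 1, 5.08 in labelled clone 5 and 16.7 in clone 6. COL9A2 and COL9A3, chains of the type IX collagen of cartilage, were near 1 CPM in parental cells, at 0.907 and 0.918. COL9A2 had 0.253 CPM in clone 1, 4.90 in labelled clone 5 and 4.80 in clone 6, and COL9A3 had 1.35, 3.32 and 5.42. The other type IX chain, COL9A1, was at 0 counts in every library but labelled clone 5, which had 44. COL19A1, COL20A1 and COL22A1 had at most 9 counts in a library and were not tested.

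The multiplexins carry the endostatin-like domains that can be released from their ends. COL18A1 had 188 CPM in parental cells, 210 in clone 1, 514 in labelled clone 5 and 590 in clone 6, each clone above the parental library, with a fitted log2 fold change of 1.22 (SE 0.64, adjusted p = 0.546 in edgeR's test). Of its exon bases 16.4% are shared with SLC19A1 on the opposite strand, so part of these reads may belong to that gene. COL15A1 had 195 CPM in parental cells and 95.8, 299 and 162 in the clones, on both sides of the parental level.

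COL8A1, a network collagen of vessel walls and the cornea, was 1 of 4 genes for which clone 1 was the highest clone. It had 109 CPM in parental cells, 250 in clone 1, 69.8 in labelled clone 5 and 71.1 in clone 6. COL8A2, its partner, had 0.365 CPM in parental cells and 0.131, 2.38 and 0.659 in the clones. COL10A1, of hypertrophic cartilage, had 0 counts in parental cells and 2, 5 and 11 in the clones.

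COL7A1 (chr3:48564073-48595267), which forms the anchoring fibrils under stratified epithelium, was below the parental library in each clone. It had 549 CPM in parental cells, 195 in clone 1, 424 in labelled clone 5 and 400 in clone 6. The fitted log2 fold change of -0.69 (SE 0.53) had an adjusted p of 0.628 in edgeR's test. COL26A1 had 6, 7, 28 and 43 counts and COL28A1 2, 13, 35 and 17 in the parental library and clones 1, 5 and 6.

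The genes that make, fold, cut, cross-link and bind collagen were taken as 7 lists of 69 genes, of which 67 were tested. Past the threshold were 5 higher and 3 lower, against the 4.24% and 5.34% of all genes, and none had an adjusted p under 0.05 in edgeR. At an unadjusted p under 0.05 in edgeR there were 11 of 67, against 11.5% of all genes. DESeq2 gave an adjusted p under 0.05 to 7, against 6.18% of all genes for which it gave one. Of the 67 it gave none to TLL2, LOXL4, GP6, NID1 and MMP9. The median log2 fold change was 0.46, beside 0.10 over all genes.

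Among 15 hydroxylation and glycosylation enzymes, which modify collagen in the endoplasmic reticulum, 1 passed the threshold and 6 were above the parental library in every clone. The gene past it was PLOD2, a lysyl hydroxylase of the telopeptides whose product allows stable cross-links, with 51.9 CPM in parental cells and 152, 137 and 124 in the clones. Its log2 fold change was 1.41 (SE 0.28, adjusted p = 0.327 in edgeR's test). P3H2 and P3H3, which hydroxylate prolines at another position, had an unadjusted p under 0.05 in edgeR and log2 fold changes of 0.99 and 0.90, short of the minimum of 1. PPIB, a prolyl isomerase of the collagen prolyl 3-hydroxylation complex and the highest of the list per kilobase in parental cells, had 531 CPM in parental cells and 420 to 609 in the clones.

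Of 9 chaperones and export genes, 1 passed the threshold, and 4 were below the parental library in every clone. The gene past it, MIA2, a cargo receptor at the exit sites of the endoplasmic reticulum, had 16.0 CPM in parental cells and 3.71, 4.48 and 5.22 in the clones, a fitted change of -1.84 on the log2 scale (SE 0.44, adjusted p = 0.327 in edgeR's test). MIA3, of the same family of cargo receptors, had 122 CPM in parental cells and 63.6, 64.6 and 67.0 in the clones, with an unadjusted p under 0.05 in edgeR and a log2 fold change of -0.91, short of the minimum. SERPINH1, the collagen chaperone HSP47 and the highest of the list per kilobase in parental cells, had 1109 CPM in parental cells and 1186 to 1507 in the clones.

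Of 8 propeptide processing genes, 1 passed the threshold, the enhancer protein PCOLCE. It had 488 CPM in parental cells, 1274 in clone 1, 1623 in labelled clone 5 and 2031 in clone 6, a fitted change of 1.75 on the log2 scale (SE 0.41, adjusted p = 0.337 in edgeR's test). Of 7 cross-linking enzymes, 1 passed. LOXL1, a lysyl oxidase best known for elastin, had 25.0 CPM in parental cells and 105, 173 and 76.1 in the clones, a fitted change of 2.24 on the log2 scale (SE 0.52, adjusted p = 0.342 in edgeR's test). LOXL2, the highest of that list per kilobase in parental cells, had 492 CPM in parental cells and 416 to 513 in the clones.

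Of 10 collagen receptors, 1 passed the threshold. ITGA2, the alpha 2 subunit of a collagen-binding integrin, had 356 CPM in parental cells and 54.3, 77.8 and 97.7 in the clones, all below the parental level. Its log2 fold change was -2.22 (SE 0.41, adjusted p = 0.275 in edgeR's test), and DESeq2 gave an adjusted p of 0.00109. ITGB1, the beta subunit it pairs with and the highest of the list per kilobase in parental cells, had 497 CPM in parental cells and 519 to 729 in the clones.

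Of 12 fibril-associated proteins, 11 were tested and 1 passed. SPARC, a collagen-binding matricellular protein, had 624 CPM in parental cells, 1891 in clone 1, 4724 in labelled clone 5 and 3150 in clone 6, a fitted change of 2.38 on the log2 scale (SE 0.59, adjusted p = 0.354 in edgeR's test). BGN, the proteoglycan biglycan and the highest of the list per kilobase in parental cells, though under SPARC in every clone, had 437 CPM in parental cells and 519 to 1440 in the clones.

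Of 8 collagen-degrading enzymes, 7 were tested, and 1 passed in each direction. FAP, a membrane protease that cuts denatured collagen, had 0.620 CPM in parental cells and 2.32, 14.2 and 19.2 in the clones, a fitted change of 4.26 on the log2 scale (SE 1.16, adjusted p = 0.409 in edgeR's test), and was no longer past the threshold without clone 6. MMP14, a membrane collagenase, had 1.55 CPM in parental cells and 0.166, 0.525 and 0.446 in the clones, a fitted change of -2.03 on the log2 scale (SE 0.84, adjusted p = 0.435 in edgeR's test). MMP14 lay at the edge of the threshold and was not past it with any other scaling, with robust estimation, or without labelled clone 5 or clone 6. MMP2, a gelatinase, was the highest of the list per kilobase in parental cells. It had 701 CPM in parental cells, 586 in clone 1, 2474 in labelled clone 5 and 1523 in clone 6.

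**Figure D5:**
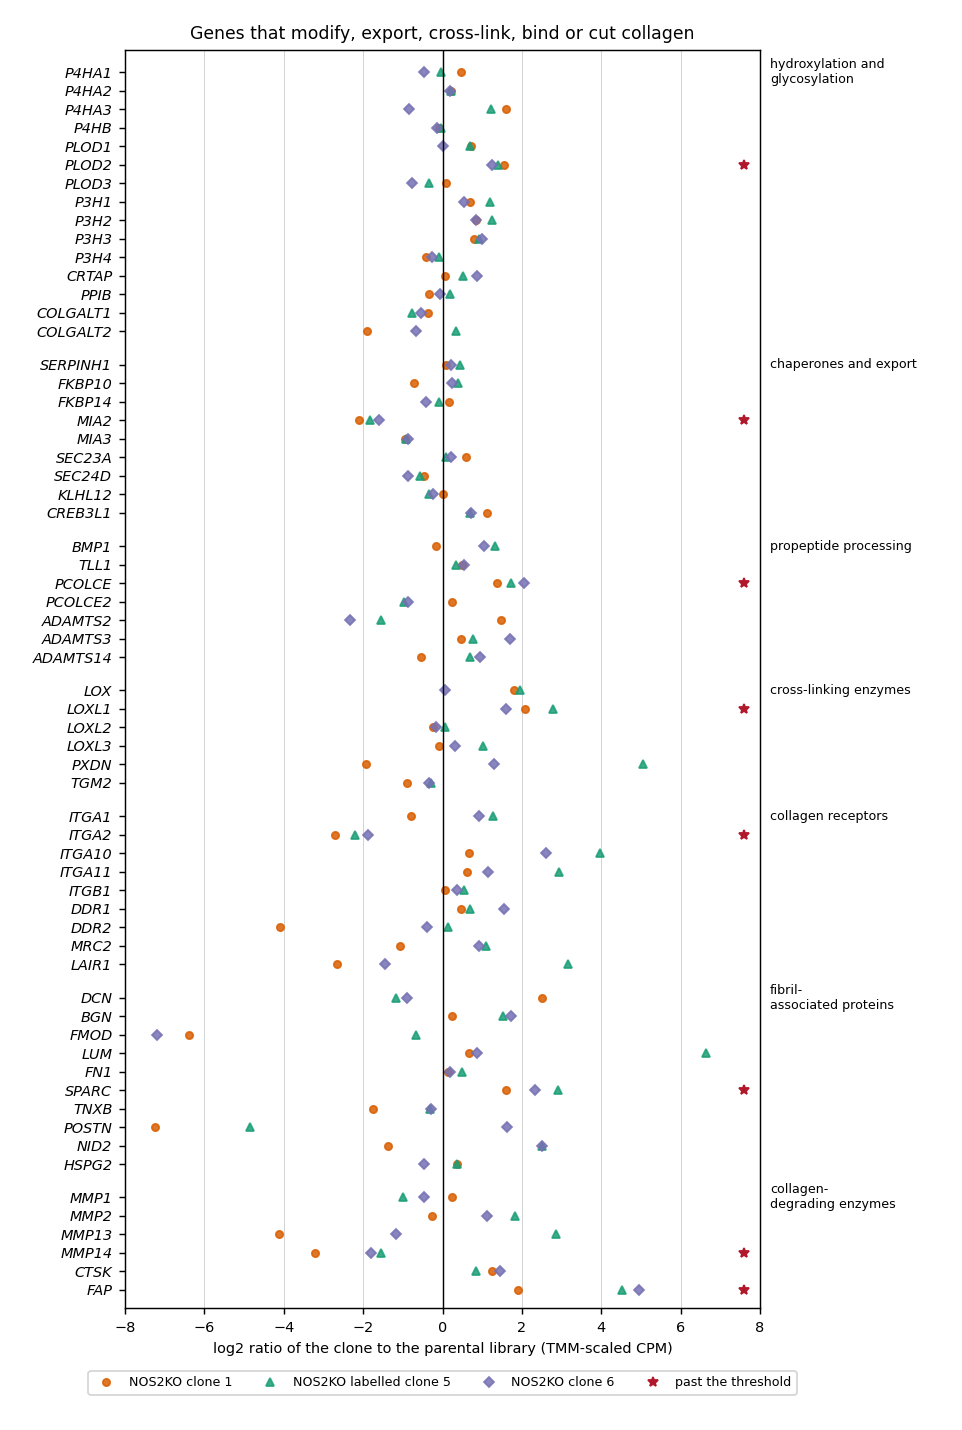
Log2 ratio of each NOS2KO clone to the parental library (TMM-scaled CPM, horizontal axis) for the tested genes of the 7 lists that reached 1 CPM in a library, with 1 symbol for each clone and a star at the right edge, which marks no ratio, for genes past the threshold in the fit of all clones. PLOD2, PCOLCE, LOXL1, SPARC and FAP have all clones to the right of 0, and MIA2, ITGA2 and MMP14 have all clones to the left.

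Markers of stromal, blood and endothelial cells were read beside these values. The libraries are of SUM159 cells and clones of them, and no other cell type is named for them. None of 6 stromal fibroblast genes was past the threshold, and their summed level was 430 CPM in parental cells, 544 in clone 1, 904 in labelled clone 5 and 1127 in clone 6. PDGFRB, a receptor of fibroblasts and pericytes, had 181 CPM in parental cells and 66.4, 563 and 563 in the clones. It was below the parental level in clone 1 and above it in the others. DCN and THY1 of the same list went the other way, above the parental library in clone 1 and below it in the others, with 2.83 and 0.365 CPM in parental cells and 16.1 and 1.33 in clone 1. PDGFRA had 140 CPM in parental cells and 153, 181 and 456 in the clones, above the parental level in each. PDPN had 106 CPM in parental cells, 308 in clone 1, 152 in labelled clone 5 and 106 in clone 6. LUM had 0.0664 CPM in parental cells and 0.105, 6.62 and 0.122 in the clones, and no gene of the list was at 0 counts. PTPRC, the leukocyte antigen CD45, was past the threshold, with 4.45 CPM in parental cells and 68.4, 105 and 41.7 in the clones, while CD3E had at most 0.0750 CPM and CD14 was lower in each clone than the 12.8 CPM of parental cells. The 3 hematopoietic genes summed to 17.3 CPM in parental cells and 53.0 to 110 in the clones. Of 3 endothelial genes none was past the threshold. PECAM1 had 16.1 CPM in parental cells and less in each clone, while CDH5 and VWF, at 0.0111 and 0.210 CPM in parental cells, were higher in every clone, at up to 3.49 and 3.80 CPM in labelled clone 5. Their part in the collagen values was not tested, and in bulk RNA a change in the share of cells that make a collagen and in the RNA per cell cannot be told apart.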

How the data were processed

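Poly(A) RNA of parental SUM159 cells and of 3 NOS2KO clones was sequenced as paired ends, with 1 library each. The files deposited by the authors hold raw counts, whole reads on each gene with no normalization. The submitters' processing notes name bcl2fastq 2.17, Trimmomatic 0.36, STAR 2.5.2b, featureCounts, Subread 1.5.2, DESeq2 and GRCh38, with no role or order. The annotation release and the strand setting are not given in the sources used here, so reads of overlapping genes on opposite strands cannot be told apart. Identifiers were matched to GENCODE 29, where 34 of the 44 collagen genes had the same start and end, and gene coordinates are those of the deposited files.

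The counts of all 57500 genes were fitted in edgeR 4.0.16 (R 4.3.3) with filterByExpr by group, TMM scaling, estimateDisp, glmQLFit and glmQLFTest, with p-values adjusted by Benjamini and Hochberg over 22511 genes that passed. A gene could pass the filter through 1 library. The threshold, after the study's, was unadjusted p under 0.05 with a difference of more than 1 on the log2 scale in either direction. The p is edgeR's, and DESeq2 1.42.0 gave the alternative Wald test. Only the clones gave the spread, with a common dispersion of 0.319 and 2 residual degrees of freedom. Ratios of 1 clone to the parental library, and of 2 chains within a library, carry exact Clopper-Pearson 95% intervals, which cover counting error only. The floor was 3 counts, or 0.0262 to 0.0332 CPM. Fits and intervals were tested on simulated data. Python 3.11.15, pandas 2.3.3, scipy 1.17.1, numpy 2.4.6 and matplotlib 3.10.9 were used.

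The collagen genes, their classes and the other lists were chosen with earlier results of these data known. Every collagen gene with at least 1 CPM in a library is named with its values, and the others by count, range and any call. From the lists of other genes, those past the threshold with at least 1 CPM in a library and the gene with the highest parental level per kilobase of each list are named. P3H2, P3H3 and MIA3 are named as well, for an unadjusted p under 0.05 in edgeR with a fold change short of the minimum. Promoter windows were RefSeq's for GRCh38.p14. A count of Gly-X-Y repeats was planned and not run, since protein sequences were not used here. Alternatives were other scalings, filters, tests, estimates and thresholds, and each clone left out.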

Additional observations from a re-analysis of the deposited data

How the results depend on the processing

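The number of collagen genes past the threshold, 3, became 6 with no filter on low counts, 10 with DESeq2's Wald test and 0 at an adjusted p under 0.05, and ran from 2 to 14 with 1 clone left out, the 14 being without clone 1. The share of all genes past the threshold, 9.58%, was 7.15% with no filter, 12.1% with DESeq2 and 6.61% to 15.5% with 1 clone left out. The number of collagen genes was 2 or 3 with the other scalings, the filter at a mean of 1 CPM, both other estimates and no minimum fold change. The median log2 fold change of 1.05 was 0.69 to 1.17 with the other settings and 0.78 to 1.55 with 1 clone left out, while upper quartile scaling moved the median of all genes from 0.10 to 0.20. Of 465 comparisons over 39 collagen and related genes, 428 kept their direction and side of the threshold, 18 newly passed it, 9 no longer passed it and 10 changed direction. The calls lost were those of MMP14 (6 settings), COL1A2 (without labelled clone 5 or clone 6) and FAP (without clone 6). With upper quartile scaling COL15A1 turned from -0.07 to 0.05. With 1 clone left out, the log2 fold change ran from -0.81 to 1.16 for COL1A1, -0.17 to 0.29 for COL27A1, -0.63 to 0.78 for COL23A1, -0.27 to 1.60 for COL21A1, -0.57 to 0.24 for COL15A1, -0.63 to 0.57 for COL8A1 and -0.22 to 0.40 for COL6A2. The cause was not tested. No paired analysis was possible because the parental cells have 1 library and share no second number with the clones. Depth limits the genes with few counts, such as COL1A2 with 10 in the parental library.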
